A study of Zea mays with 10 samples.

Results

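Dehydroascorbate reductases return oxidised ascorbate (dehydroascorbate) to ascorbate, with glutathione as the electron donor. They belong to the glutathione transferase superfamily and work in the ascorbate-glutathione cycle, in which ascorbate peroxidase spends ascorbate on hydrogen peroxide, monodehydroascorbate reductase and dehydroascorbate reductase recover it, and glutathione reductase restores glutathione. In maize roots the quiescent centre, the slowly dividing cells at the core of the meristem, is known to hold a more oxidised ascorbate and glutathione pool than the cells around it.

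The genes described are the 4 maize genes named dhar1 (GeneID:100273125), dhar2 (GeneID:100382696), dhar3 (GeneID:100191219) and dhar4 (GeneID:100285047). They were chosen by name from a count table of 48174 genes. The rule used no measured value, but earlier results of these data were known when it was set. The names run differently in another numbering listed by RefSeq, in which dhar1 is ZmDHAR3, dhar2 is ZmDHAR4, dhar3 is ZmDHAR1 and dhar4 is ZmDHAR2. In the B73 gene table of RefSeq (assembly Zm-B73-REFERENCE-NAM-5.0), dhar1 and dhar2 are next to each other with no gene between them, while dhar3 and dhar4 each stand apart from the others. The table gives 1 transcript each to dhar1, dhar2 and dhar3 and 5 transcripts, coding for 3 proteins, to dhar4. None of the 4 overlaps another gene in that table, and none had a fractional count in any library. Fractions were taken to come from reads divided between genes. How reads shared by genes were counted is not given, so reads shared by dhar genes may have been left out.

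All libraries were made from nuclear RNA of the outermost 1 mm of primary and seminal roots of the inbred line B73, from seedlings 3 days after germination that spent 1 h in water and 1 h in 175 uM 5-ethynyl uridine (EU), a uridine analog that is built into RNA while it is made. The EU nascent group (5 libraries) held RNA pulled down through biotin on its EU, and the nuclear group (5 libraries) held all nuclear RNA of labelled tissue without the pulldown. Both groups therefore carried the label, and background capture of RNA without EU was not analysed here. Root tips hold many cell types, and a higher level in more cells cannot be told apart from more RNA per cell. The labels call the replicates biological without saying what separates them.

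Library totals ran from 1323450 to 20397606 counts, with nuclear replicates 1 and 3 (1323450 and 1702909) and EU nascent replicates 1 and 3 (2391209 and 2417533) the shallowest. Nuclear replicate 4 was by far the deepest (20397606). It held 149 of the 225 nuclear counts of dhar1, 56 of 83 of dhar2, 65 of 115 of dhar3 and 487 of 698 of dhar4. Of 21048 genes tested with edgeR's quasi-likelihood test, 4166 were higher and 4436 lower in EU nascent at a Benjamini-Hochberg adjusted p under 0.05. Higher genes were 48.4% of the calls with TMM scaling and 72.8% with scaling by library totals alone. The median over all genes went from 0.02 to 0.19 on the log2 scale between these scalings. Every change below is relative to the bulk of genes. Of 5 matched root genes, rth3 and wox5b had counts in all 10 libraries and plt1, plt2 and rtcs1 had none. All 6 matched genes of dividing cells had counts in all 10 libraries. Of 11 matched leaf genes, 8 had at most 10 counts in all libraries together (ssu1, rbcs, lhcb3, cab1, psad1, psbs1 and 2 genes listed as pep1), while ppdk1, me3 and pep7 were well covered. Of 6 matched flower and seed genes, 5 had at most 10 counts and the sixth was sh1, a sucrose synthase gene. Summed, the root genes took 44.3 to 52.1 CPM of the library total in EU nascent and 32.8 to 39.3 in nuclear, those of dividing cells 245 to 312 and 224 to 293, the leaf genes 1048 to 1136 and 755 to 869, and the flower and seed genes 841 to 1303 and 443 to 688. Their part in the results was not tested.

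Of the 4 dehydroascorbate reductase genes, dhar2 and dhar4 were higher in EU nascent RNA, by 1.97-fold and 1.52-fold. The tests of dhar1 and dhar3 did not pass, with estimates of 1.20-fold and 0.945-fold. So 2 of 4 were called, against a background of 40.9% of all tested genes. Both were higher, where 19.8% of all tested genes were higher and 21.1% lower. A fit with the replicate number as a block called the same 2 genes, and 5099 of 21048 tested genes were higher and 5347 lower. With 4 genes, 2 calls are a description and not a property shown for the family. Summed over the 4 genes, EU nascent libraries held 47.8 ± 6.15 CPM (SD, n = 5, range 41.0 to 54.3) and nuclear libraries 32.9 ± 4.92 (range 26.7 to 39.6). On average dhar4 made up 65.2% of these counts in EU nascent and 62.2% in nuclear libraries, so the sum mostly follows dhar4. CPM are counts scaled to a common library size with TMM factors. They are not per transcript length, because no length of the annotation used for counting is given in the sources used here, so levels are compared below between groups and not between genes.

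**Figure D1:**
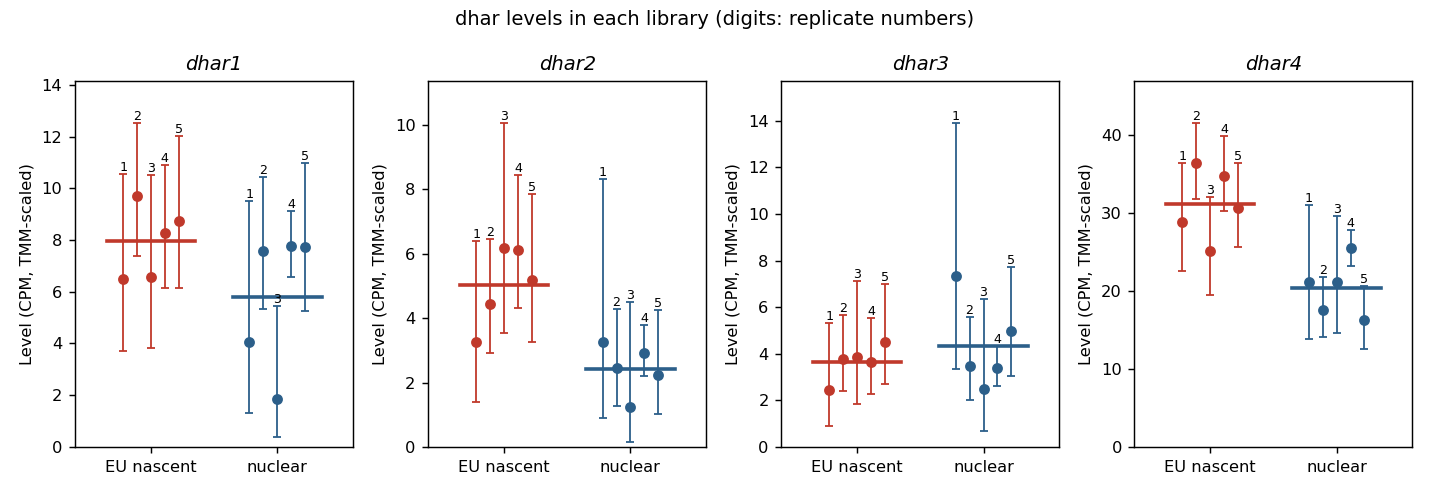
Level of dhar1, dhar2, dhar3 and dhar4 in each library, in TMM-scaled CPM on axes that start at 0, for EU nascent (red) and nuclear (blue). Points are libraries with their replicate number, bars are 95% exact Poisson intervals of the count (counting error only), and horizontal lines are group means. For dhar2 and dhar4, 4 of 5 EU nascent libraries stand above every nuclear library, for dhar1 3 of 5 do, and for dhar3 none does.

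dhar4, the gene with the most counts (1395 over all libraries), was measured with the least counting error of the 4. EU nascent replicates 1 to 5 held 28.8, 36.4, 25.2, 34.8 and 30.7 CPM, and nuclear replicates 1 to 5 held 21.2, 17.6, 21.1, 25.5 and 16.2 CPM. In 4 of 5 EU nascent libraries the level lay above all nuclear libraries, and the exception was EU nascent replicate 3, which lay just under nuclear replicate 4. Mean levels were 31.2 ± 4.53 CPM for EU nascent against 20.3 ± 3.60 for nuclear RNA (SD, n = 5). The log2 fold change was 0.61 ± 0.14 (SE), or 1.52-fold with a 95% interval of 1.25 to 1.87, and passed the edgeR test with an adjusted p of 0.0019. All 5 pairs of libraries with the same replicate number had the higher level in EU nascent, with log2 differences from 0.25 in number 3 to 1.05 in number 2. Genes within 2-fold of the mean CPM of dhar4 were called at 42.8% (3927 of 9167). The fold change of dhar4 exceeded that of 91.4% of all tested genes.

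dhar2 had the largest estimate of the 4 genes and few counts (193 over all libraries). EU nascent replicates 1 to 5 held 3.25, 4.44, 6.19, 6.13 and 5.19 CPM, and nuclear replicates 1 to 5 held 3.25, 2.46, 1.24, 2.93 and 2.25 CPM. EU nascent replicates 2 to 5 lay above all nuclear libraries, while EU nascent replicate 1 (8 counts) and nuclear replicate 1 (4 counts) were at the same level to within 0.01 CPM. On average EU nascent RNA had 5.04 ± 1.23 CPM against 2.43 ± 0.77 for nuclear RNA (SD, n = 5). The log2 fold change was 0.98 ± 0.25 (SE), or 1.97-fold with a 95% interval of 1.36 to 2.85, with an edgeR adjusted p of 0.00483. Pairs of the same replicate number were higher in EU nascent in 4 of 5 cases, with log2 differences of 0.86, 2.32, 1.07 and 1.21 for numbers 2 to 5. Number 3 rests on 2 counts in the nuclear library. Of genes within 2-fold of its mean CPM, 24.5% were called (910 of 3718). Its fold change exceeded that of 98.0% of all tested genes.

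dhar1, the neighbour of dhar2, did not pass the test. EU nascent replicates 1 to 5 held 6.49, 9.71, 6.58, 8.28 and 8.73 CPM, and nuclear replicates 1 to 5 held 4.07, 7.57, 1.87, 7.79 and 7.73 CPM. EU nascent replicates 2, 4 and 5 lay above all nuclear libraries and EU nascent replicates 1 and 3 did not. Nuclear replicates 2, 4 and 5 sat within the EU nascent range, and the low nuclear libraries were replicates 1 and 3, with 5 and 3 counts. The means were 7.96 ± 1.40 CPM for EU nascent against 5.81 ± 2.71 for nuclear RNA (SD, n = 5). The log2 fold change was 0.27 ± 0.23 (SE; edgeR adjusted p = 0.372), and its 95% interval runs from 0.861-fold to 1.69-fold. A change as large as the 1.52-fold of dhar4 is inside that interval, so at this depth a change of that size could not be told apart from none. In all 5 pairs of the same replicate number the EU nascent level was the higher, by a log2 difference of 0.09 to 0.68 in numbers 1, 2, 4 and 5 and of 1.82 in number 3. Genes within 2-fold of its mean CPM were called at 29.8% (1714 of 5753).

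dhar3 did not pass either, and its estimate lay near 0. EU nascent replicates 1 to 5 held 2.44, 3.78, 3.87, 3.64 and 4.48 CPM, and nuclear replicates 1 to 5 held 7.32, 3.48, 2.49, 3.40 and 4.99 CPM. The highest value of all was nuclear replicate 1, which rests on 9 counts and has a 95% Poisson interval of 3.35 to 13.9 CPM, and the other libraries of both groups were interspersed. EU nascent RNA averaged 3.64 ± 0.75 CPM against 4.34 ± 1.90 for nuclear RNA (SD, n = 5). The log2 fold change was -0.08 ± 0.26 (SE; edgeR adjusted p = 0.832), with a 95% interval from 0.643-fold to 1.39-fold. Genes within 2-fold of its mean CPM were called at 25.2% (1008 of 3994). The interval lies below the estimates of dhar2 (1.97-fold) and dhar4 (1.52-fold), but these have errors of their own. It overlaps the intervals of both (1.36 to 2.85 and 1.25 to 1.87). The ratios given below compare the genes directly, and dhar3 passed there against dhar2 and not against dhar4. The sign of the estimate turned with library totals alone (0.091), with limma-voom (0.015), and without EU nascent replicate 1, nuclear replicate 1 or nuclear replicate 5 (0.016, 0.024 and 0.011), so no direction is given for dhar3.

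In none of the 4 genes were the groups free of overlap, against 24.8% of all tested genes. The spread between libraries was close to what the counts alone give for most genes and groups. In nuclear RNA the coefficient of variation of the level was 46.6% for dhar1, 31.7% for dhar2, 43.7% for dhar3 and 17.7% for dhar4, where the counts alone give 22.3%, 39.7%, 32.0% and 13.8%. In EU nascent RNA the values were 17.6%, 24.5%, 20.5% and 14.5%, where the counts alone give 18.0%, 22.9%, 26.8% and 9.12%. Only dhar1 in nuclear RNA had a coefficient more than 2 times that of counting, and its low values were those of the shallow replicates 1 and 3. EU nascent replicates 1 and 3 were also the lowest of their group for dhar1 (6.49 and 6.58 CPM). The reason for this spread was not tested. Without numbers 1 and 3 of both groups, a choice made after seeing the data, dhar2 (log2 fold change 0.96, edgeR adjusted p = 0.00807) and dhar4 (0.69, 0.000808) still passed, and dhar1 (0.20, 0.400) and dhar3 (0.059, 0.883) did not.

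**Figure D2:**
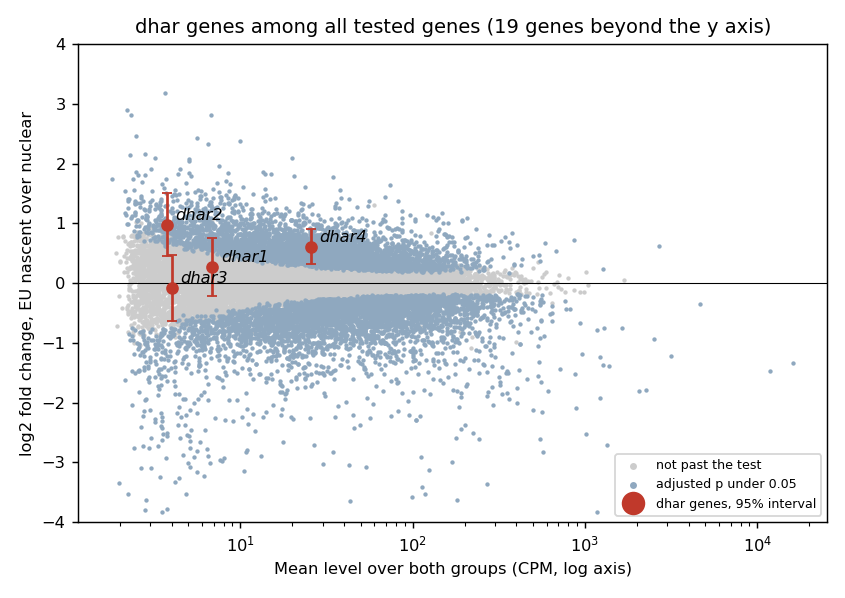
Log2 fold change of EU nascent over nuclear against the mean CPM of both groups (log axis) for all tested genes, with genes at an edgeR adjusted p under 0.05 in blue and the others in grey; 19 genes lie beyond the y axis. The 4 dhar genes are in red with 95% intervals, which leave 0 for dhar2 and dhar4 and cover it for dhar1 and dhar3.

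Whether the 4 genes differed among themselves was asked of their ratios within each library, which no scaling can move. Of 6 pairs, only dhar2 over dhar3 passed after adjustment. Its log2 ratio of counts was 0.44 ± 0.24 in EU nascent (SD, n = 5, range 0.21 to 0.74) and -0.75 ± 0.39 in nuclear (range -1.11 to -0.21), so the groups did not overlap. Several of these ratios rest on few counts. Nuclear replicates 1, 3 and 5 held 4, 2 and 9 counts of dhar2 and 9, 4 and 20 of dhar3. EU nascent replicate 1 held 8 and 6. The difference was 1.19, with an exact two-sided permutation p of 0.00794 (adjusted over the 6 pairs, 0.0476). No smaller p is possible with 5 libraries a group. The ratio was higher in EU nascent in all 5 pairs of the same replicate number, and with the replicate block it could not pass, because flipping the signs of 5 paired differences allows an exact p of 0.0625 at best (adjusted p = 0.25). Without any 1 library the smallest p allowed rises, and the adjusted exact permutation p was then 0.0952 in all 10 cases with differences between 1.10 and 1.32.

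dhar3 over dhar4 was lower in EU nascent by a log2 difference of -0.80 (-3.06 ± 0.35 against -2.26 ± 0.67, SD, n = 5). Its exact permutation p of 0.0476 became 0.143 after adjustment, so it did not pass. dhar1 over dhar3 had a difference of 0.75 (1.11 ± 0.26 against 0.35 ± 0.89, adjusted exact permutation p = 0.254, n = 5). dhar2 over dhar4, the genes that were both called, had a difference of 0.39 (-2.62 ± 0.44 against -3.01 ± 0.48, adjusted exact permutation p = 0.286, n = 5). The adjacent genes dhar1 and dhar2 had a difference of -0.43 (0.66 ± 0.41 against 1.10 ± 0.66, adjusted exact permutation p = 0.286, n = 5), so that the call of dhar2 and its absence in dhar1 are not shown to differ. dhar1 over dhar4 had -0.05 (-1.95 ± 0.13 against -1.91 ± 0.91, adjusted exact permutation p = 0.937, n = 5).

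**Figure D3:**
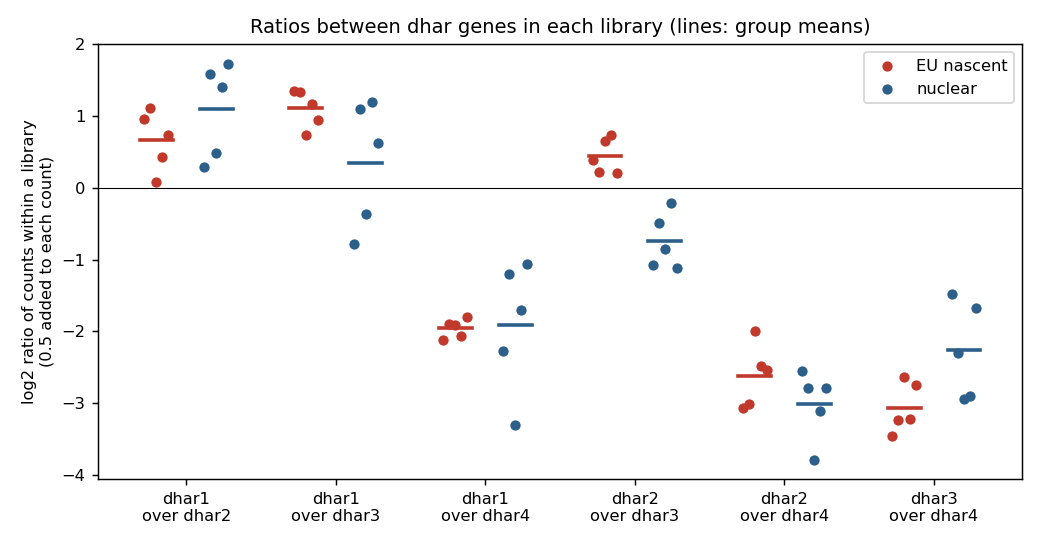
Log2 ratio of the counts of a pair of dhar genes within each library (0.5 added to each count) for the 6 pairs, in EU nascent (red) and nuclear (blue), with lines at the group means. Only for dhar2 over dhar3 do the 5 EU nascent points (0.21 to 0.74) all lie above the 5 nuclear points (-1.11 to -0.21).

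The gene on the other side of dhar2 in the reference table, LOC541929, moved the other way. Its mean was 13.1 CPM for EU nascent and 19.8 for nuclear RNA (log2 fold change -0.70 ± 0.19, SE; edgeR adjusted p = 0.00714), a call lost under 1 setting, as given under the processing alternatives. The gene before dhar4, LOC100191540, was lower too, with 104 CPM against 177 (-0.77 ± 0.08, edgeR adjusted p = 1.01e-06). The other immediate neighbours of the 4 genes, a small nuclear RNA gene beside dhar1, a pseudogene and a noncoding RNA gene beside dhar3 and a long noncoding RNA gene beside dhar4, had no count in any library.

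The other genes of the ascorbate-glutathione cycle that could be matched by name, apx2 and gor1, did not pass the test. apx2, an ascorbate peroxidase gene, had 29.2 CPM in EU nascent and 28.5 in nuclear. Its EU nascent replicates 1 to 5 held 41.0, 27.6, 31.3, 25.2 and 20.8 CPM, on both sides of the nuclear range of 27.0 to 30.1. Its log2 fold change was 0.01 ± 0.14 (SE; edgeR adjusted p = 0.974, 95% interval -0.29 to 0.30). gor1, a glutathione reductase gene, had 27.2 and 26.6 CPM and a log2 fold change of -0.02 ± 0.12 (edgeR adjusted p = 0.931, 95% interval -0.27 to 0.24). The sign of both turned under other settings. No gene matched by name as a monodehydroascorbate reductase. The glutathione synthesis genes gsh1, coding for the glutamate-cysteine ligase step, and gsh2, coding for glutathione synthetase, had log2 fold changes of 0.26 ± 0.30 and 0.15 ± 0.11 (SE; edgeR adjusted p = 0.520 and 0.273), which did not pass. gsh1 held 597, 434, 138, 486 and 387 CPM in EU nascent replicates 1 to 5 and 514, 361, 122, 390 and 321 CPM in nuclear replicates 1 to 5. Replicate 3 was the lowest in both groups, and EU nascent was the higher in all 5 pairs of the same number. With the replicate number as a block gsh1 was higher in EU nascent (0.26 ± 0.05, edgeR adjusted p = 0.000389), as it was without numbers 1 and 3 (0.28, 0.0145). gsh2 passed with library totals alone (0.32, edgeR adjusted p = 0.0191), a scaling that also raises the median of all genes.

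Both matched genes of ascorbate synthesis were higher in EU nascent, where 19.8% of all tested genes were higher. VTC2, named for the enzyme that releases galactose phosphate from GDP-galactose and commits it to ascorbate, held 18.7, 16.8, 26.7, 18.4 and 23.4 CPM in EU nascent replicates 1 to 5 and 13.0, 13.3, 9.95, 11.3 and 13.5 CPM in nuclear replicates 1 to 5. The groups did not overlap, as in 24.8% of all tested genes, and the log2 fold change was 0.74 ± 0.15 (SE; edgeR adjusted p = 0.000792). GalDH, a galactose dehydrogenase gene of the same route by its name, held 10.6, 12.0, 6.19, 10.3 and 8.02 CPM in EU nascent and 5.69, 7.37, 3.11, 7.27 and 5.99 CPM in nuclear replicates 1 to 5. Its groups overlapped through EU nascent replicate 3, and its log2 fold change of 0.57 ± 0.21 passed narrowly (edgeR adjusted p = 0.0378). That call was lost in 8 of 20 other settings, among them without EU nascent replicates 2 or 4 or nuclear replicates 1, 3 or 5, one at a time (adjusted p = 0.129, 0.0807, 0.0541, 0.0654 and 0.0774).

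Genes that act on superoxide and hydrogen peroxide went both ways. Of 6 superoxide dismutase genes, which turn superoxide into hydrogen peroxide, 2 were higher, 3 lower and 1 did not pass, where 19.8% of all tested genes were higher and 21.1% lower. Their median log2 fold change was -0.51. Sod4A had the highest value (0.61 ± 0.10, edgeR adjusted p = 0.000102) and CSD4 the lowest (-1.67 ± 0.18, 1.01e-06), and CSD4 had a fractional count in 1 library. The other 4 are named with their values known. sod4 was higher (0.44 ± 0.14, edgeR adjusted p = 0.0154), and sod3 and sod2 were lower (-1.01 ± 0.12 and -0.77 ± 0.15, adjusted p = 4.66e-06 and 0.000536). fsd1 had -0.26 ± 0.11 (edgeR adjusted p = 0.0801) and passed with limma-voom (adjusted p = 0.0460) and without nuclear replicate 1 (-0.30, 0.0303). The catalase gene cat1 was higher by 0.27 ± 0.08 (edgeR adjusted p = 0.0138), while cat2 and CAT3 had 0 and 3 counts in all libraries together and were not tested. The thioredoxin gene trxh2 was higher by 0.88 ± 0.17 (edgeR adjusted p = 0.000409), trxh1 had 0.00 ± 0.12 (0.995) and grx1, matched as a glutaredoxin gene, was lower, at -0.60 ± 0.17 (0.0103). grx1 had fractional counts in 5 libraries and lost its call without nuclear replicate 4 (-0.50, edgeR adjusted p = 0.0610), with library totals alone (-0.43, 0.0524) and after thinning to the smallest library (-0.38, 0.263). Over the cycle, synthesis, superoxide, peroxide and thiol lists together, 6 of 16 tested genes were higher, 4 lower and 6 not past the test, beside 19.8% higher and 21.1% lower over all tested genes. The median log2 fold change was 0.08 where all tested genes had 0.02. These lists held 18 genes, so 2 were left untested.

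Glutathione transferases, the superfamily to which the dehydroascorbate reductases belong, went both ways. Of 33 listed genes 19 had enough counts to be tested, and 3 were higher (15.8%), 6 lower (31.6%) and 10 not past the test. Their median was -0.11 on the log2 scale. Over all tested genes 19.8% were higher and 21.1% lower, so the share of higher genes was near that background, and with 19 genes the counts are a description. gst41 had the highest log2 fold change (0.92 ± 0.11, SE; edgeR adjusted p = 4.85e-06) and GST26 the lowest (-2.08 ± 0.32, 5.99e-05). GST26 had 1.89 CPM in EU nascent and 6.88 in nuclear. Fractional counts occurred in 9 of the 19 and in none of the dehydroascorbate reductase genes.

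**Figure D4:**
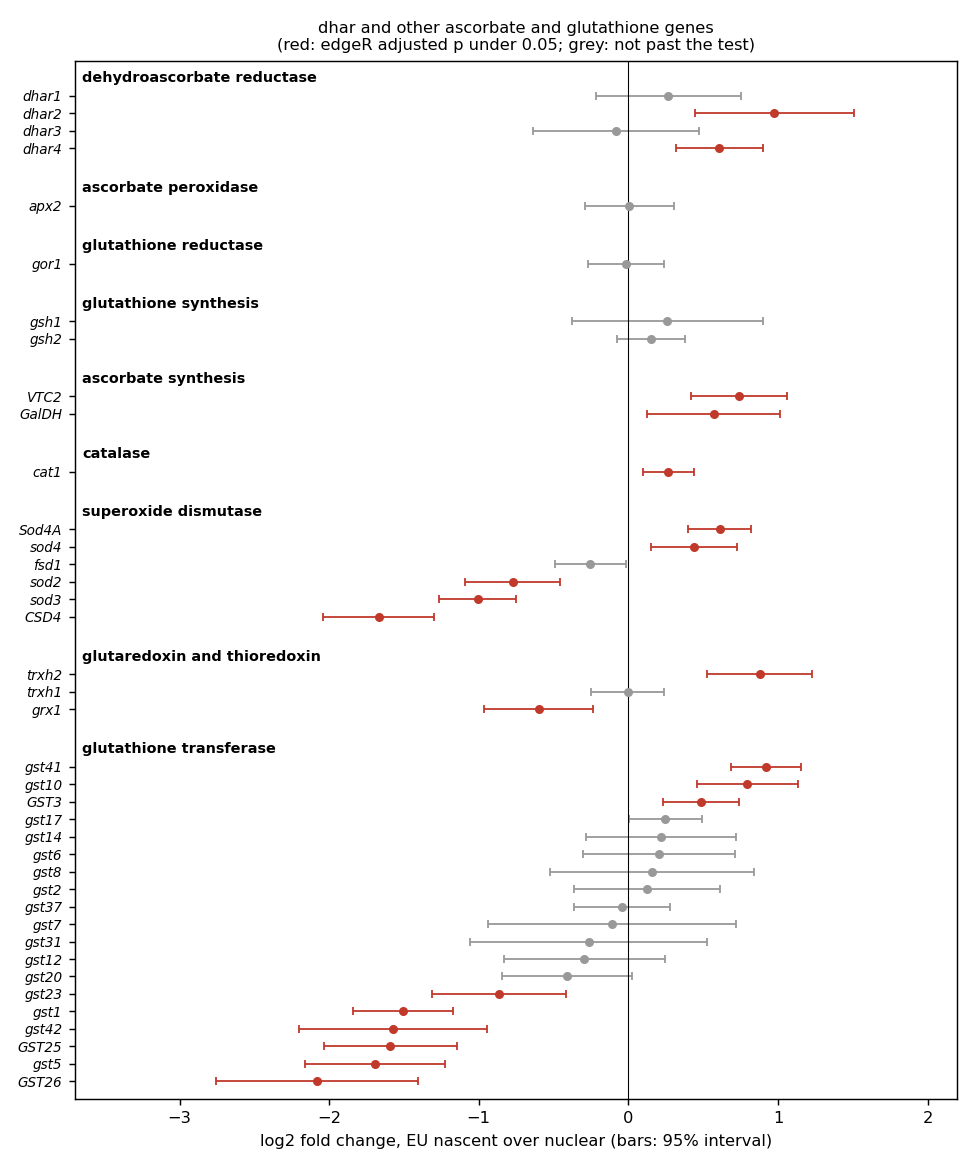
Log2 fold change of EU nascent over nuclear with 95% intervals for the 4 dhar genes and the tested genes of the other lists, grouped by role. Red marks an edgeR adjusted p under 0.05 and grey marks genes not past the test. The genes dhar2, dhar4, VTC2 and GalDH lie to the right of 0, and apx2 and gor1 lie on it. Red genes of the other lists lie on both sides, among them trxh2 and gst41 to the right and CSD4 and GST26 to the left.

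Profiles most like those of the 4 genes were sought among the named genes with a mean of at least 10 CPM (1358 for dhar1). The measure was the root-mean-square difference of log2 CPM over the 10 libraries, each gene centred on its own mean, and smaller values mean more alike. The measure includes the difference between the groups, so the calls of the genes it picks follow in part from the choice and are given as a description. Closest to dhar4 were a gene listed as Rhodopsin (0.184), the coatomer subunit gene copz2 (0.185) and Smh6 (0.190), where the median candidate had 0.435. Their log2 fold changes by edgeR were 0.54, 0.54 and 0.33 (adjusted p = 2.48e-05, 5.67e-05 and 0.00682). Closest to dhar2 were EREB94 (0.208), of the ethylene response element binding family by its name, hdr10 (0.253) and see2a (0.257), against a median of 0.645. Their log2 fold changes were 0.77, 0.80 and 1.01 (edgeR adjusted p = 0.00407, 3.05e-05 and 0.000394).

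For dhar1 the closest were pck2 (0.265), HST (0.350) and PRPK (0.353), against a median of 0.646. Their log2 fold changes were 0.46, 0.48 and 0.08 (edgeR adjusted p = 0.0495, 0.0218 and 0.728). Leaving out 1 library ended the call of pck2 for EU nascent replicate 2, 4 or 5 and nuclear replicate 1, 2, 3 or 5 (adjusted p from 0.0573 to 0.148), and that of HST for EU nascent replicate 2 or 4 (0.0819 and 0.0615). The call of pck2 was also lost with limma-voom (adjusted p = 0.0777) and that of HST after thinning to the smallest library (edgeR adjusted p = 0.122). For dhar3 the closest were NIR (0.240), MAGE (0.249) and mTRF8 (0.262), against a median of 0.473, and none of these 3 passed the edgeR test (-0.23, -0.17 and 0.10, adjusted p = 0.283, 0.434 and 0.541). Among the 4 dehydroascorbate reductase genes themselves, dhar2 and dhar4 were the most alike by this measure (0.441) and dhar1 and dhar3 the least (0.672). At a few counts per library this measure also reads counting error, which is larger for dhar1, dhar2 and dhar3 than for dhar4 and for the candidates, which had at least 10 CPM. Distances among the 4 genes are therefore not comparable with those to the candidates. The order of the distances among the 4 genes may reflect counting error as well.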

How the data were processed

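Per the labels' protocols, nuclear RNA went through DNase and a ribosomal RNA depletion kit for plants before strand-specific libraries with UMI adaptors were built. Tools listed in the submitters' processing notes, without role or order, were HTSeq, UMI-tools, STAR 2.7.10b, Trimmomatic (0.36 and 0.39), deepTools and SAMtools. Genome build, annotation release and strand setting are not given in the sources used here, so no coordinates are printed. The deposited values were treated as estimated counts per gene (the expected count of reads, not normalized by the authors), from the values themselves: 96.3% were whole within 1e-06. The series table and the files per library differed in 0 values. Of 48174 identifiers, 99.9% matched RefSeq's table.

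Counts were rounded and tested with edgeR 4.0.16 in R 4.3.3 (filterByExpr, TMM, quasi-likelihood F test, Benjamini-Hochberg over all tested genes). Standard errors are the absolute log2 fold change over the square root of F, and intervals are 95%. Ratios had 0.5 added to each count and an exact permutation test (scipy 1.17.1). Log2 CPM for likeness had a prior count of 2. Poisson intervals cover counting error only. Both tests were checked on simulated data, edgeR on counts with few changed genes balanced in direction and the ratio test on normal values. Those settings do not cover the large share of calls or the few counts met here.

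The genes and lists were chosen with earlier results of these data known. Lists were matched by symbol or synonym, and no product description was used. gs2 (glutamine synthetase) and AO1 and AO2 (aldehyde oxidases) matched by letters only and were dropped, after their values were seen. No gene matched as glutathione peroxidase. Named genes are the 4 dhar genes, 3 most like each, and of each list all members up to 4, otherwise the highest and lowest called.

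Replicate numbers 1 to 5 are in the labels. Deviations from group means correlated across genes at 0.20, 0.22, 0.18, 0.19 and 0.16 between same-numbered libraries and at most 0.11 between others, so the numbers were taken to pair the libraries. The pairing comes from these values. The main edgeR fit and the permutation test of the ratios did not use it, and the replicate block is given as an alternative. Alternatives were DESeq2 1.42.0, limma-voom (limma 3.58.1), other scalings, filters and rounding, the replicate block and leaving out each library. Thinning and leaving out numbers 1 and 3 were added after seeing the data.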

Additional observations from a re-analysis of the deposited data

How the results depend on the processing

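dhar1 stayed unpassed and dhar2 and dhar4 stayed past the edgeR threshold in every setting that could test them, with log2 fold changes of 0.15 to 0.44, 0.88 to 1.15 and 0.53 to 0.79. Without the deepest library, nuclear replicate 4, these were 0.41, 1.14 and 0.79, each the highest among the fits without 1 library. With at least 10 counts required in every library, or all libraries thinned to the smallest, only dhar4 was left to test (0.63 and 0.78). The replicate block changed no call of the 4 genes (edgeR log2 fold change 0.32, 1.06, -0.08 and 0.66 for dhar1 to dhar4). dhar3 was 0.091 with library totals alone, 0.015 with limma-voom, 0.059 without numbers 1 and 3, and -0.22 to 0.024 without 1 library, and never passed. dhar2 over dhar3 kept its difference of 1.19 under the replicate block with an adjusted p of 0.25, had 0.99 without numbers 1 and 3 (0.2), and 1.10 to 1.32 without 1 library. Those designs allow no smaller p than 0.0625 before adjustment, or have fewer libraries. dhar1 over dhar4 ran from -0.40 to 0.17 without 1 library. Without numbers 1 and 3 the differences of the dhar1 pairs moved to -0.81 over dhar2, 0.18 over dhar3 and -0.60 over dhar4, none past the exact permutation test (adjusted p = 0.2, 0.6 and 0.2).

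Genes higher and lower were 7386 and 2765 with library totals alone, 2450 and 2852 after thinning (which tested 17126 genes), and 3406 to 4636 and 3898 to 4633 without 1 library. Under the replicate block they were 5099 and 5347. In that fit 4 glutathione transferases were higher and 7 lower, and of the other listed pathway genes 7 were higher and 4 lower. The 6 lower glutathione transferases became 3 with 10 counts in every library, 3 after thinning and 10 without numbers 1 and 3. The stricter filter and the thinning tested fewer genes (16218 and 17126 against 21048), and GST26 was tested in neither. How much of the change in these counts came from genes left untested was not tested.

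Uncalled genes near 0 changed sign. gor1 was 0.16 with library totals alone, 0.028 with upper quartile scaling, 0.0073 with 10 counts in every library, 0.29 after thinning and -0.073 to 0.032 without 1 library. trxh1 was 0.17, 0.040, 0.019 and 0.031 in these 4 settings, 0.00020 with DESeq2, 0.0077 under the replicate block, 0.035 without numbers 1 and 3 and -0.063 to 0.043 without 1 library. apx2 was -0.0027 with no filter, -0.033 with limma-voom, -0.056 under the replicate block, -0.18 without numbers 1 and 3 and -0.11 to 0.12 without 1 library. MAGE was 0.0051 with library totals alone, PRPK -0.032 without numbers 1 and 3, -0.19 after thinning and -0.016 to 0.16 without 1 library, and mTRF8 -0.14 after thinning. The causes were not tested. Of 32 single genes named beside the 4, 7 lost a call in at least 1 setting (GalDH, HST, LOC541929, cat1, grx1, pck2 and sod4), with LOC541929 at -0.55 after thinning (adjusted p = 0.100). Another 3 gained one: gsh1 under the replicate block and without numbers 1 and 3, gsh2 with library totals alone, and fsd1 with limma-voom and without nuclear replicate 1. The replicate block ended no call of these 32 genes.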
